A study of Oncorhynchus mykiss with 24 samples.

Results

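Transcripts described as zonadhesin-like were followed in single rainbow trout embryos with 4 expressed sequence tags (ESTs), named CA042416, CB511019, CA045910 and CA061566. The name rests on that description, and whether each EST comes from a zonadhesin gene was not tested. The members were chosen by name, as the ESTs that the study's supplementary list of features differing between the sexes matched to a zonadhesin-like gene of Atlantic salmon (Salmo salar). They are 4 of the 16028 ESTs on the array, and 4 of the 75 whose description in the files holds the word zonadhesin. All 4 passed the filter on low signal, as did 54 of the 71 other zonadhesin ESTs and 11437 ESTs in all. Because that list was drawn up on these same arrays with an overall test over all groups, its members were not chosen blind to the differences described here.

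Zonadhesin is known from mammals as a large protein of the sperm head that binds the zona pellucida, the coat of the egg. It is built of MAM domains, mucin-like repeats and repeated von Willebrand D domains, all of which also occur in other adhesive and mucus proteins. In the study it was taken up as a candidate gene for sexual development, and its question here is how these transcripts behaved before hatching.

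Total RNA came from 48 whole embryos of a single backcross family, in which the allele of the fast developing Clearwater (CW) clonal line at a major quantitative trait locus (QTL) for development rate had been bred into the slow Oregon State University (OSU) clonal line. The QTL genotype was OSU/CW in some embryos and OSU/OSU in the others. They were female or male by a Y chromosome marker, and were collected at 15, 19 and 28 days post fertilization (dpf), which are the eyed stage, the caudal flexing stage and the beginning of hatching. There were 4 embryos of each sex, genotype and time point. Each of 24 arrays paired an OSU/CW with an OSU/OSU embryo of matching sex and age, one labelled with Cy3 and the other with Cy5. The OSU/CW embryo was in Cy5 on 4 of 8 arrays of each time point, although at 15 dpf on most female and few male arrays. In whole embryos, fewer cells that make a transcript and less of it per cell cannot be told apart.

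The level of an EST is its normalized log2 intensity, the brightness of its spot after background correction and scaling of the arrays to each other. Median signal over local background across all EST spots was 1.18 to 1.83 at 15 dpf, 1.20 to 3.07 at 19 dpf and 1.75 to 4.83 at 28 dpf. Precision is limited by the 4 embryos per group. Of lens crystallin ESTs 41 of 45, and of skeletal muscle ESTs (myosin, parvalbumin and troponin) 94 of 117, were called higher at 28 than at 15 dpf, while 5 of 52 hemoglobin ESTs were higher and 18 lower.

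No sequence of the 4 ESTs was in the files used here. The primer pair with which the study measured zonadhesin by qRT-PCR is shown because its oligonucleotides are listed under this gene's name. Which of the ESTs they match was not tested.
qRT-PCR forward primer: tgtaccatctaaaccactgtgaa
qRT-PCR reverse primer: gctcaagtttagtttttgcgtct
Both primers have 23 bases.

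From 15 to 28 dpf, 2 of the 4 ESTs rose. CB511019 was 1.55-fold higher at the beginning of hatching. CA042416 was 1.79-fold higher, against a level at 15 dpf that was above the negative controls in only 3 of 16 embryos. CA061566 and CA045910 did not pass the test. At 15 and 19 dpf together CA042416 and CA061566 were each detected in 12 embryos, so that both reached the 16 channels required for testing only through the embryos of 28 dpf, the age at which a rise would be called. Calls were made with limma at a false discovery rate (FDR) of 0.05 over all tested ESTs, each contrast being the mean over both sexes and both genotypes. In the same comparison 19.2% of all tested ESTs were called higher and 18.6% lower at 28 dpf, and the count of members is one over only 4 ESTs, whose difference from these shares was not tested. Without scaling between the arrays, that is after loess alone, the median change of all tested ESTs was -0.54 and the values of CB511019, CA045910 and CA061566 turned to between -0.18 and -0.19, while relative to that median all 4 lay above it, by 0.36 to 0.81.

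CB511019 had the smallest limma adjusted p among the members for the change from 15 to 28 dpf. In the 14 embryos measured at 15 dpf its log2 level ran from 10.79 to 12.41 with a median of 11.71. In the 16 embryos at 19 dpf it ran from 10.91 to 12.91 with a median of 12.15. At 28 dpf all 16 embryos lay between 11.96 and 12.93, with a median of 12.3. The lowest embryos of 15 and 19 dpf therefore had no counterpart at hatching, while the upper ends of the 3 time points overlapped. The difference of 28 minus 15 dpf was 0.64 on the log2 scale (SE 0.19, 95% interval 0.26 to 1.01, limma adjusted p = 0.00702). Of it, 0.41 (SE 0.18, adjusted p = 0.113) lay between 19 and 28 dpf and 0.23 (SE 0.19, adjusted p = 0.603) between 15 and 19 dpf, and neither step passed the test alone. Removal of the female array 40 of 19 dpf brought the step from 19 to 28 dpf past it, with 0.52 and an adjusted p of 0.0354. Over the array means, which average the 2 embryos of an array, an exact two-sided permutation test of 7 against 8 arrays gave a rise of 0.61 from 15 to 28 dpf (p = 0.000777, adjusted p = 0.00932 over 12 comparisons). With both sexes and genotypes pooled, the SD was 0.49 at 15 dpf, 0.58 at 19 dpf and 0.27 at 28 dpf.

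CA042416 had a larger change with a larger error. Its log2 level in 14 embryos at 15 dpf was 8.93 to 10.85 with a median of 10.02. The 16 embryos of 19 dpf lay between 8.96 and 12.79, around a median of 10.5. At 28 dpf the range of 16 embryos was 8.69 to 12.58 and the median 10.93. The lower ends of the 3 ranges nearly coincided, while the upper ends at 19 and 28 dpf lay well above that of 15 dpf. The fitted difference of 28 minus 15 dpf was 0.84 (SE 0.32, 95% interval 0.19 to 1.49, adjusted p = 0.0364), of which 0.60 (SE 0.32, adjusted p = 0.367) lay between 15 and 19 dpf and 0.24 (SE 0.31, adjusted p = 0.652) between 19 and 28 dpf. The exact permutation test over array means gave 0.82 (p = 0.0286) and an adjusted p of 0.172 over the 12 comparisons, so the call did not hold there. Nor did it hold without background subtraction (0.28, adjusted p = 0.129), with poor spots kept (0.71, adjusted p = 0.0888), after loess alone (0.27, adjusted p = 0.584), or without any 1 of 7 arrays, namely 14, 17, 34 or 41 of 15 dpf and 36, 37 or 38 of 28 dpf, where the adjusted p lay between 0.0532 and 0.106. This EST was near the floor in the youngest embryos: its spot exceeded the 90th percentile of the negative controls in 3 of 16 embryos at 15 dpf, 9 at 19 dpf and 14 at 28 dpf, and in no embryo of 2 of the 15 dpf groups.

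CA061566, also a dim spot, was measured in 16, 14 and 14 embryos. Its log2 level spanned 9.15 to 11.85 at 15 dpf, around a median of 10.5. At 19 dpf the span was 9.02 to 13.07 with 10.8 as the median. It narrowed to 10.07 to 12.27 at 28 dpf, where the median was 10.9. As with CB511019, embryos with the lowest values were found at 15 and 19 dpf only. The difference of 28 minus 15 dpf was 0.37 (SE 0.32, 95% interval -0.27 to 1.02, adjusted p = 0.371), with 0.13 from 15 to 19 dpf and 0.24 from 19 to 28 dpf, each smaller than its SE. Its spot was above the negative controls in 5, 7 and 13 of 16 embryos at the 3 time points. Signal over local background across all EST spots also rose with age, with channel medians of 1.52, 1.73 and 2.45. Its part in the rise of detection, here and for CA042416, was not tested.

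CA045910 was detected in 46 of 48 embryos, the other 2 being those of an array with a poor spot, and it moved least. At 15 dpf its log2 level in 16 embryos was 12.53 to 13.84 with a median of 13.56. In 14 embryos of 19 dpf it was 12.29 to 14.45 with a median of 13.26. In 16 embryos of 28 dpf it was 13.01 to 14.22 with a median of 13.6. The 3 ranges overlapped, the one of 19 dpf being the widest at both ends. Its fitted changes were -0.12 (SE 0.19, adjusted p = 0.811) from 15 to 19 dpf, 0.26 (SE 0.19, adjusted p = 0.384) from 19 to 28 dpf and 0.13 (SE 0.18, 95% interval -0.24 to 0.50, adjusted p = 0.603) from 15 to 28 dpf.

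**Figure D1:**
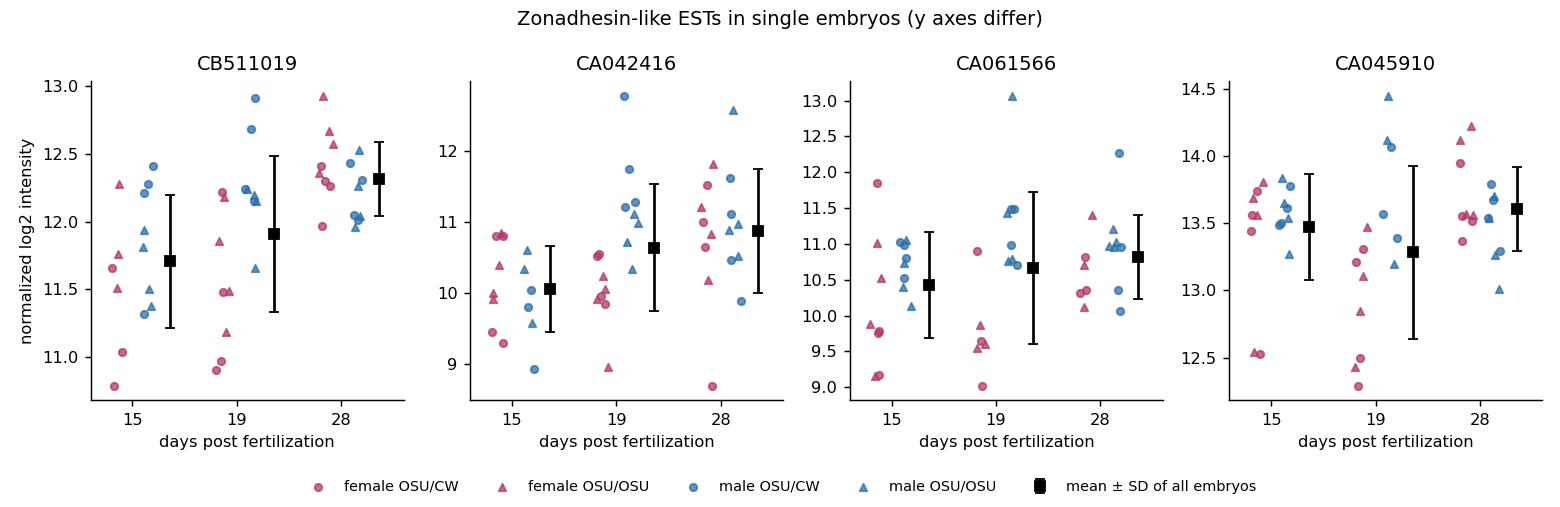
Normalized log2 intensity (y axis) of the 4 ESTs against days post fertilization (x axis), 1 point per embryo, coloured by sex and shaped by QTL genotype, with the mean and SD of all embryos as black squares. CB511019 at 28 dpf lies between 11.96 and 12.93 in all 16 embryos, whereas at 15 and 19 dpf it reaches down to 10.79 and 10.91.

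No EST passed the test between 15 and 19 dpf (0 of 4, against 2.45% of all tested ESTs called higher and 0.306% called lower) or between 19 and 28 dpf (0 of 4, against 8.12% and 8.56%). With limma's unadjusted p under 0.05 these counts were 0 and 1 of 4, the latter being CB511019, beside 15.5% and 31% of all tested ESTs. The exact permutation tests over array means found 1 of 12 comparisons, CB511019 from 15 to 28 dpf, and after loess alone 0. The rule stated in the methods is an overall test over the 12 treatments at FDR 0.05, followed by FDR 0.2 over 66 pairwise contrasts. Applied to the limma fit made here, it called CB511019 (6 of 12 time contrasts) and CA042416 (5 of 12) between time points. CA045910 and CA061566 did not pass its overall test here (adjusted p = 0.255 and 0.277), although the study's list holds them. That list came from the authors' own processing and model fit, and the cause of the difference was not tested. That rule called 13.7% of all tested ESTs between at least 1 pair of time points. These were the same 1565 ESTs that passed its overall test, so a time call under it adds nothing to passing that test. The study's list was itself drawn with an overall test on these arrays, so these calls are no separate support.

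No difference between the time courses of the ESTs passed a test. Differences between 2 ESTs were computed within each array and compared between time points with exact two-sided permutation tests, for 6 pairs and 3 comparisons. In these exact tests the largest difference was between CA042416 and CA045910 from 15 to 19 dpf (0.73, p = 0.0449), followed by CA042416 against CA045910 from 15 to 28 dpf (0.66, p = 0.0987) and CA042416 against CB511019 from 15 to 19 dpf (0.48, p = 0.0972). The smallest p was 0.0278, for CB511019 rising by 0.44 more than CA045910 from 15 to 28 dpf. After adjustment over 18 comparisons 0 passed, with adjusted p of 0.404 and above, and 2 passed an unadjusted 0.05. Each test had 6 to 8 arrays on each side. The call of 2 ESTs and not of the others over time is thus not accompanied by a tested difference between them.

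Within a time point, the widest gaps lay between the sexes at 19 dpf. These values are given as a description without a test, since the ESTs entered the study's list for differing between the sexes on these arrays. At 19 dpf the 4 female arrays of CA042416 had means of 9.40, 10.01, 10.23 and 10.38, and the 4 male arrays 10.77, 11.14, 11.23 and 11.96. Females lay below males without overlap, by 1.27 on average, but its spot was above the negative controls in only 2 of 8 female embryos, against 7 of 8 male ones. CA061566 was 9.29, 9.76 and 10.25 on 3 female arrays and 10.75, 11.12, 11.21 and 12.28 on 4 male arrays, again without overlap, with a mean difference of -1.57. None of the 6 female embryos with a value for CA061566 at 19 dpf exceeded the 90th percentile of the negative controls, so that the female mean is only an upper bound. CA045910 was 12.46, 12.70, 13.08 and 13.34 in females and 13.39, 13.75 and 14.26 in males, a gap between the sexes that was narrower than the spread within either. CB511019 was 11.20, 11.33, 11.42 and 12.20 in females and 12.17, 12.17, 12.20 and 12.57 in males, so that 1 female array reached into the male range. Non-overlapping array means with females lower were found for 3.03% of all tested ESTs at 19 dpf and with females higher for 2.44%, and for 3 and 1 of the 54 other zonadhesin ESTs.

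At the other ages the sexes overlapped for all 4 ESTs. The mean difference of females minus males ran from -0.57 for CA061566 to 0.31 for CA042416 at 15 dpf, and from -0.36 for CA061566 to 0.26 for CA045910 at 28 dpf. Over all tested ESTs the non-overlapping shares were 2.21% (females lower) and 1.78% (females higher) at 15 dpf, and 1.89% and 2.41% at 28 dpf. Median signal over background of the 19 dpf arrays was 1.29 to 2.35 in females and 1.42 to 2.79 in males, and the median female minus male difference over all tested ESTs was -0.02. The part of signal strength in the values at 19 dpf was not tested.

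Split by sex, the time courses took different shapes, described here without a test for the same reason. From 19 to 28 dpf every female mean was higher at the later age, by 0.25 to 1.22 over the 4 ESTs and both genotypes. The male means of the same step ran from -0.98 to 0.45, with 6 of 8 below 0. Between 15 and 19 dpf it was the males whose 8 means were all higher at the later age, by 0.08 to 2.17, and female means ran from -0.50 to 0.23. Both steps contain the values of 19 dpf, so the gap between the sexes at that age enters both. The 8 means of a sex come from shared arrays and are not independent. The matching shares over all tested ESTs were not examined. For CB511019, females were at 11.16 (OSU/CW) and 11.85 (OSU/OSU) at 15 dpf and at 12.24 and 12.63 at 28 dpf. Males went from 12.06 and 11.66 to 12.20 and 12.20. These means are not adjusted for dye. At 15 dpf the OSU/CW embryo was in Cy5 on all 3 female arrays measured for CB511019, and in Cy3 on 3 of 4 male arrays. Genotype and dye therefore cannot be told apart in these female means.

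**Figure D2:**
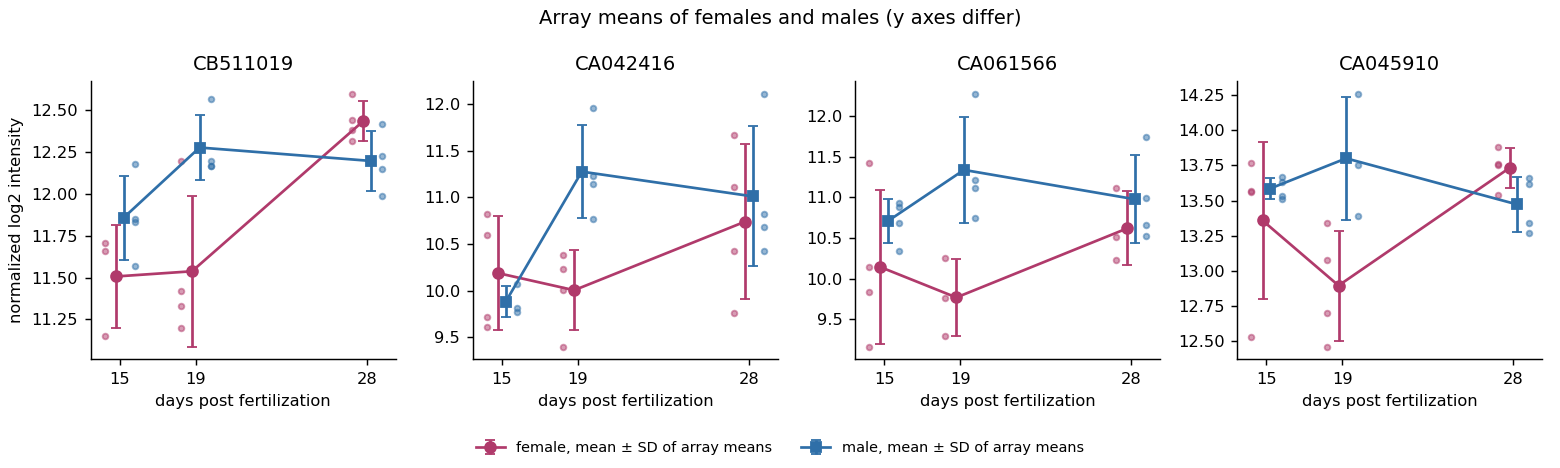
Array means of normalized log2 intensity (y axis) against days post fertilization (x axis) for female and male arrays, with the mean and SD of 3 or 4 arrays as large symbols and single arrays as small points. Female means lie below male means for all 4 ESTs at 19 dpf, by 0.74 to 1.57, and female and male arrays overlap for all 4 at 15 and 28 dpf. The ESTs were listed for differing between the sexes on these same arrays, and no test was made. The gap of 1.57 is that of CA061566. At 19 dpf its spot was above the negative controls in 0 female embryos, and that of CA042416 in 2.

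No EST passed the test for QTL genotype. The comparison was made within arrays, each of which held an OSU/CW and an OSU/OSU embryo of the same sex and age, and a positive value means a higher level with the CW allele. Limma called 0 of the 4 ESTs at 15, 19 or 28 dpf, over the 3 time points together, or in the change of the genotype difference between time points, where it also called 0% of all tested ESTs in each of these 7 contrasts. With unadjusted p under 0.05 the counts were 0, 1 and 1 of 4 at 15, 19 and 28 dpf and 0 over the time points together. Of all tested ESTs, 5.43%, 5.91% and 4.75% had such a p at these ages, and 4.85% over the time points together. Averaged over the time points, the difference of OSU/CW minus OSU/OSU was -0.07 for CB511019 (SE 0.08, 95% interval -0.24 to 0.10) and -0.08 for CA045910 (SE 0.09, -0.25 to 0.10). For the dim spots it was -0.06 for CA042416 (SE 0.14, -0.35 to 0.23) and -0.05 for CA061566 (SE 0.15, -0.34 to 0.25).

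CA042416 varied most between the 2 embryos of an array. The SD of its log2 ratio over the arrays, 0.885, was larger than that of 98.7% of all tested ESTs. Its spot was above the negative controls in 3 embryos at 15 dpf, 9 at 19 dpf and 14 at 28 dpf. Among females at 19 dpf it was so in 1 of 4 embryos of each genotype, so many of these ratios hold values near the floor. At 19 dpf its log2 ratio of OSU/CW over OSU/OSU was -0.10, 0.27, 0.64 and 0.88 on the female arrays and 0.30, 0.87, 1.03 and 1.67 on the male arrays. At 28 dpf it was -2.14, -0.30, -0.20 and 0.47 in females and -1.09, -0.95, -0.42 and 0.59 in males. The OSU/CW embryo was thus the higher one on 7 of 8 arrays at 19 dpf and on 2 of 8 at 28 dpf, and at 15 dpf on 2 of 7. The mean was 0.70 ± 0.55 (SD, n = 8) at 19 dpf, where an exact two-sided sign-flip test gave p = 0.0156 and an adjusted p of 0.187 over 12 comparisons, with 0.00781 the smallest p that 8 arrays can give. At 28 dpf it was -0.50 ± 0.89 (exact p = 0.148) and at 15 dpf -0.37 ± 0.74 (exact p = 0.203). The change of the genotype difference from 19 to 28 dpf was -1.20 in the limma fit (SE 0.34, 95% interval -1.89 to -0.51), with an unadjusted p of 0.0011 and an adjusted p of 0.741. The change from 15 to 19 dpf was 1.08 (SE 0.35, adjusted p = 0.708). Neither passed after adjustment over all tested ESTs. At 28 dpf the mean ratio was -0.99 on the 4 arrays with the OSU/CW embryo in Cy5. With that embryo in Cy3 it was -0.02, also on 4 arrays. At 19 dpf the means were 0.76 in Cy5 and 0.63 in Cy3. The ratio of -2.14 included the lowest level of this EST, 8.69. The part of the dye in these changes was not tested.

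For the remaining ESTs, as for CA042416, the within-array ratios lay on both sides of 0 at every age. CB511019 ranged from -1.24 to 0.89 at 15 dpf, from -0.88 to 1.02 at 19 dpf and from -0.71 to 0.39 at 28 dpf, with the OSU/CW embryo higher on 3 of 7, 5 of 8 and 3 of 8 arrays. Its ratios at 15 and 19 dpf moved with the dye. With the OSU/CW embryo in Cy3 they were 0.47 to 0.89 on 3 arrays at 15 dpf and 0.03 to 1.02 on 4 arrays at 19 dpf. With it in Cy5 they were -1.24 to -0.10 and -0.88 to 0.09 on 4 arrays each. At 28 dpf the ranges were -0.67 to -0.20 in Cy3 and -0.71 to 0.39 in Cy5. The limma fit has a single dye term for all ages and the sign-flip tests have none, and the part of the dye in these ratios was not tested. CA045910 ranged from -0.35 to 0.51 at 15 dpf, from -0.82 to 0.47 at 19 dpf and from -0.75 to 0.66 at 28 dpf. Its range was the narrowest of the 4 ESTs at 15 and 19 dpf, while that of CB511019 was narrower at 28 dpf. At 15 dpf the OSU/CW embryo was the higher one for CA045910 on only 1 of 8 arrays (mean -0.03, exact sign-flip p = 0.742). CA061566 ranged from -0.76 to 0.84, from -1.58 to 1.30 and from -0.90 to 1.07. The 9 exact sign-flip tests of these ESTs had p from 0.195 to 0.828. The rule of the methods called genotype contrasts of CB511019 (3 of 6 comparisons within sex and time point) and CA042416 (1 of 6), beside 9.57% of all tested ESTs. Of the 1565 ESTs that passed its overall test, 1095 had at least 1 genotype contrast called. The members were listed through an overall test on these arrays, so 9.57% is not a fair measure for them. Each contrast lies within 1 sex, and the dye was not balanced within the sexes at 15 dpf.

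**Figure D3:**
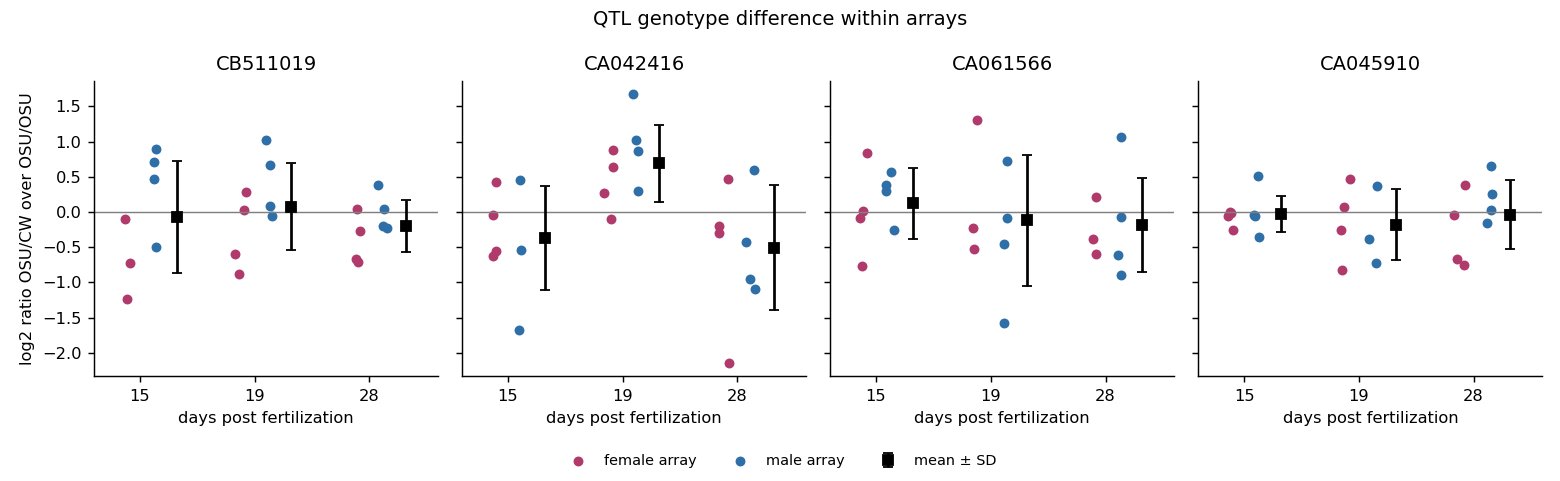
Log2 ratio of the OSU/CW over the OSU/OSU embryo of each array (y axis) against days post fertilization (x axis), coloured by sex, with the mean and SD as black squares. The ratios of CA042416 lie above 0 on 7 of 8 arrays at 19 dpf and on 2 of 8 at 28 dpf. Its spot was above the negative controls in only 1 of 4 female embryos of each genotype at 19 dpf. The ratios of every EST lie on both sides of 0 at every age.

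The 4 ESTs agreed weakly from array to array. Once the mean of each sex and time point was removed, so that only differences among arrays of a group remained, the array means of all 6 pairs correlated positively, with Pearson's r from 0.22 (CA045910 and CA061566) to 0.41 (CA042416 and CA061566) over 21 or 22 arrays. Spearman's rho ran from 0.13 to 0.39. None of the 6 passed a permutation test, the smallest p being 0.0678 for r and 0.0766 for rho, and the adjusted p over 12 correlations was at least 0.36. Leaving out the 2 arrays farthest from the median moved r to between 0.09 and 0.46. The ESTs of an array share its slide, hybridization and normalization. After loess alone CB511019 reached r = 0.71 with CA045910 and with CA061566 (permutation test, adjusted p = 0.0018 for each).

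The genotype ratios gave a less uniform picture. With the mean of each dye orientation removed, r was 0.43 for CB511019 and CA045910 (permutation p = 0.0463, adjusted p = 0.36) and 0.35 for CA045910 and CA061566 (p = 0.12). It was 0.20 for CA042416 and CB511019, -0.09 for CA042416 and CA045910, 0.00 for CA042416 and CA061566 and -0.20 for CB511019 and CA061566. CA042416, the EST with the largest genotype ratios at 19 dpf, had p of 0.373 or more with each of the others. Spearman's rho of the 6 pairs ran from -0.16 to 0.39 (smallest permutation p = 0.0707, adjusted p = 0.425), and r without the 2 farthest arrays from -0.35 to 0.41.

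Correlations between other spots are given for scale. Where 1 EST was spotted at 2 places, the median r of array means between the spots was 0.30 over 27 such ESTs, with quartiles of 0.07 and 0.47, and that of genotype ratios was 0.20. The 6 pairs of zonadhesin-like ESTs had medians of 0.28 and 0.10. The other 54 zonadhesin ESTs had medians of 0.03 and 0.03 over their 1431 pairs. Against all other tested ESTs, the median r of a member's array means was -0.01 to 0.03. These are descriptions over shared arrays, and no test was made of the differences among them.

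**Figure D4:**
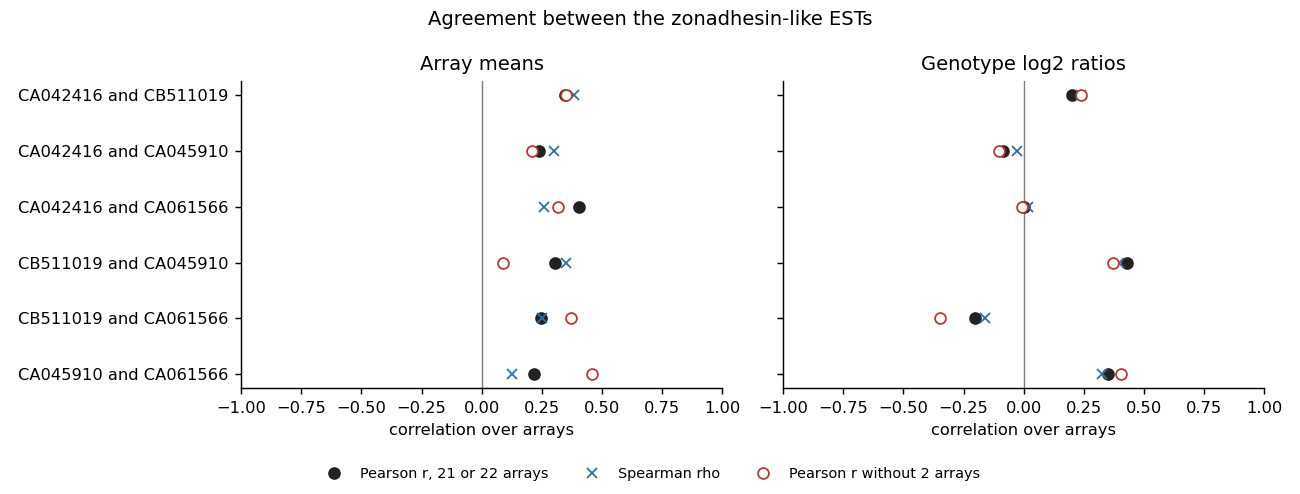
Correlation over arrays (x axis) for each of the 6 pairs of ESTs (y axis), on the left for array means less the mean of their sex and time point and on the right for genotype log2 ratios less the mean of their dye orientation. All r of array means lie between 0.22 and 0.41, whereas those of the ratios lie between -0.20 and 0.43.

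From 15 to 28 dpf, ESTs with the same description were called in shares no larger than those of the whole array. Of the 75 zonadhesin ESTs on the array, 73 carry the same zonadhesin-like description as the 4 members, which is the second most frequent known description on the array, and 2 are described as Zonadhesin. Among the 58 tested, 10 rose and 6 fell from 15 to 28 dpf, beside 19.2% and 18.6% of all tested ESTs, and the median change was 0.07, against 0.02 over all tested ESTs. The other 54 without the members had 8 that rose and 6 that fell, with a median of 0.03. Of these 8, 2 were above the negative controls in no embryo at 15 dpf, and 3 reached the 16 channels only through the embryos of 28 dpf. CB492577, detected in 8, 11 and 14 of 16 embryos at the 3 ages, rose by 0.97 (SE 0.24, adjusted p = 0.00144). CB511626 fell most, by 1.55 on the log2 scale (SE 0.30, adjusted p = 8.14e-05), and CA055721 and CA041271 fell by 1.29 and 1.28. Between 19 and 28 dpf, 3 of the 54 rose and 5 fell, beside 8.12% and 8.56% of all tested ESTs. Between 15 and 19 dpf 0 of the 54 were called. In that step 7 of them (13%) had a limma unadjusted p under 0.05, beside 15.5% of all tested ESTs. In genotype contrasts 0 were called. The mean genotype difference was above 0 in 14 of the 58 zonadhesin ESTs (24.1%), beside 50.1% of all tested ESTs. The median difference of the 58 was -0.07, against 0.00 over all tested ESTs. These ESTs were measured on the same arrays and are not independent, and the difference between the percentages was not tested. Overlap in sequence among these ESTs could not be examined here, and whether a spot also bound related transcripts was not tested.

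**Figure D5:**
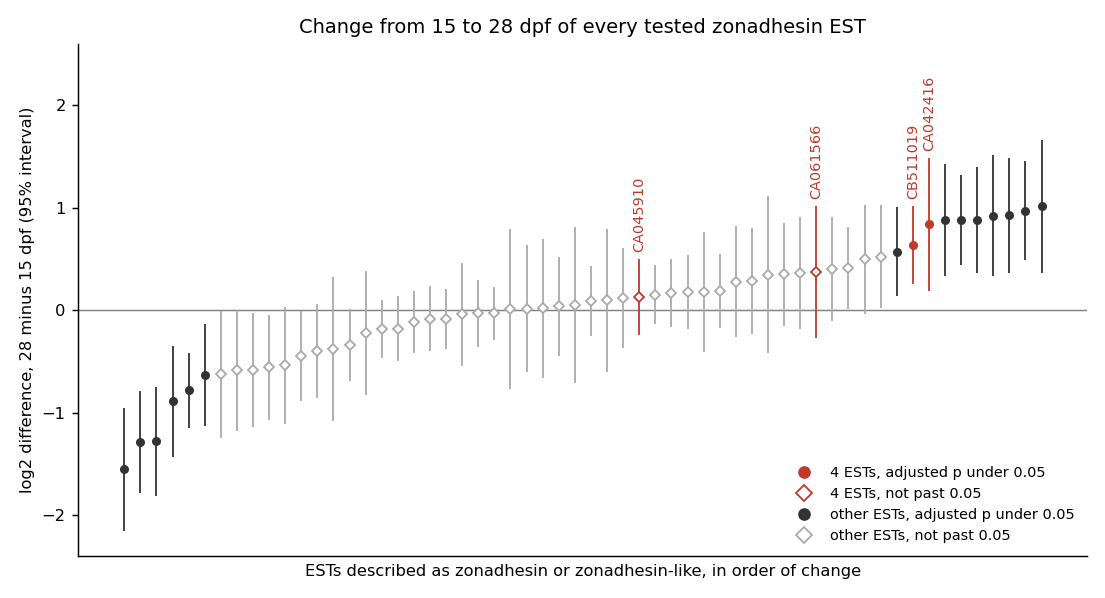
Log2 difference of 28 minus 15 dpf with its 95% interval (y axis) for the 58 tested ESTs described as zonadhesin or zonadhesin-like, in ascending order (x axis). Filled symbols passed the test, 6 below and 10 above 0, of which 2 above 0 were not detected in any embryo of 15 dpf, and the 4 members, in red, lie between 0.13 and 0.84.

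Lists drawn from the descriptions covered egg coat proteins, mucins and proteins named for domains that zonadhesin also holds, or related to them. Of 12 tested ESTs of egg coat proteins, 2 rose and 3 fell from 15 to 28 dpf, with a median change of 0.02. Zona pellucida sperm-binding protein 2 rose by 1.63 (SE 0.25, adjusted p = 1.91e-06), and protein 4 of the same family fell by 1.21 (SE 0.27, adjusted p = 0.000618). Both are components of the egg coat in mammals. Of 9 tested ESTs on the list of mucins and von Willebrand D domain proteins, 3 rose and 1 fell, with a median of 0.24. That list was drawn by name, and the domains of its members were not examined. The EST that fell is described as a Mucin-like protein 1 precursor. An intestinal mucin-like protein rose by 2.47 (SE 0.29, adjusted p = 1.38e-08; detected in 3 of 16 embryos at 15 dpf) and a Mucin-2 EST by 1.76 (SE 0.24, adjusted p = 2.71e-07). Of 2 tested ESTs with MAM domains, both of the metalloprotease meprin A, 1 fell, by 1.40 (SE 0.30, adjusted p = 0.000407).

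Of 11 tested ESTs of germ line and sex genes, 1 rose and 1 fell. An EST of DDX4, the RNA helicase Vasa of germ cells, fell by 1.81 (SE 0.34, adjusted p = 7.23e-05), while a second one changed by 0.57 without passing the test. An EST of 15-hydroxyprostaglandin dehydrogenase, which inactivates prostaglandins, rose by 0.70 (SE 0.27, adjusted p = 0.0402). These called ESTs were dim. That of DDX4 was above the negative controls in 6 of 16 embryos at 15 dpf and in 2 at 28 dpf. The dehydrogenase was above them in 4 at 15 dpf and in 9 at 28 dpf. Hatching enzymes, which dissolve the egg coat at hatching, had 1 riser among 5 tested ESTs, a high choriolytic enzyme 2 with 1.10 (SE 0.26, adjusted p = 0.00103) that was detected in 1 of 16 embryos at 15 dpf. Epidermal keratins had 19 that rose and 3 that fell of 44, and yolk and liver transcripts 10 and 10 of 55. In these lists 0 ESTs were called in the mean genotype difference.

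The features most like the members were found by the correlation with their mean centred profile, to which the members themselves contribute. Over the 12 group means, the closest were an EST similar to a renal organic anion transporter (r = 0.98), T-complex protein 1 subunit gamma (0.96), which is part of a chaperonin, an EST of unknown identity (0.96), Glia maturation factor beta (0.95) and Heterogeneous nuclear ribonucleoprotein K (0.94). The members reached 0.82 to 0.90 and ranked 21 to 213 among all tested ESTs. Over the 48 channels, CA061566 (r = 0.84) and CA042416 (0.80) ranked 1 and 2, CB511019 (0.78) ranked 6 and CA045910 (0.67) ranked 51. The nearest others were an unknown EST (0.79), Hematological and neurological expressed 1 protein (0.79), 40S ribosomal protein S27a (0.78), NADH-ubiquinone oxidoreductase chain 3 (0.77) and an EST of the MHC class I a region (0.76). No other zonadhesin EST was among the 5 closest in either ranking.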

How the data were processed

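Total RNA of 48 embryos was measured on 24 arrays with 2 channels. Spot and local background intensity of each channel were deposited by the authors as scanned, on a linear scale and not normalized. The authors also deposited a table with a score for each of 10153 spots, a quotient of centred log values of the channels. The main analysis did not use it, and only the alternative with the authors' centred log values took its centres from it. At least 99.7% of each array's scores could be rebuilt from the intensities within 1e-04, their column medians are -1.10 to 1.07, and their log base cancels. No scanner or software is given in the sources used here.

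With limma 3.58.1 in R 4.3.3, backgrounds were corrected by normexp (offset 50), and arrays were normalized by loess (weight 0 for control spots) and scaled by Aquantile. Spots marked poor in either channel, 189 to 1446 per array, were set to missing, and an EST with several spots was averaged over them. An EST was tested with a signal above the 90th percentile of 1003 negative control spots in at least 16 of 48 channels and with 2 or more arrays measured per sex and time point. Both channels were fitted in 1 model with 12 treatments and dye, with arrays as a random block (correlation 0.533, prior degrees of freedom 6.84), and p-values were adjusted by Benjamini-Hochberg over all 11437 tested ESTs of a contrast. Replicates are named by array number. Each channel holds 1 embryo and each array 2, all of 1 family, so p-values measure the spread among siblings.

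Permutation tests enumerated all splits or sign changes, and correlations used 100000 resamples. The 4 ESTs were chosen by their listing in the study. The others named are those with extreme changes among zonadhesin ESTs detected at 15 dpf, a choice made after their values were seen, the 5 most like the members, and up to 4 per list with the smallest p. Members and lists were chosen with earlier results of these data known. Alternatives changed background correction, scaling, detection, poor spots, dye term, model, arrays and call rule, and 1 added after seeing the data used the authors' centred log values. The code was tested on simulated data. Intensities on arrays carry no count, so the depth is given as signal over background.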

Additional observations from a re-analysis of the deposited data

Results flagged for a closer look

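One value stood far from the others of its group. CB511019 in the 4 male OSU/OSU embryos at 19 dpf had its lowest value, 11.66, on array 11, while the others lay between 12.15 and 12.24. The gap took 0.845 of the range of the group. Of the EST groups with 4 measured embryos, 38 were looked at, and chance marks about 1 in 20.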

How the results depend on the processing

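After loess alone 0 ESTs were called over time and 0 of the exact tests passed. There the changes from 15 to 28 dpf were -0.18 for CB511019 (also -0.18 over array means), -0.19 for CA045910 and -0.18 for CA061566. Those from 19 to 28 dpf were -0.44 (CA042416), -0.27 (CB511019), -0.17 (CA045910) and -0.38 (CA061566), against a median of -0.61 over all tested ESTs, and 2 of 12 correlations passed. The number of ESTs called over time was 1 without background subtraction and 1 with poor spots kept, and 1 to 2 when each array was left out. The rule of the methods gave 2 in the genotype comparison, where it called 1095 of the 1565 ESTs past its overall test. Genotype differences near 0 turned sign. That of CB511019 at 15 dpf became 0.038 without background subtraction, 0.026 with poor spots kept and 0.004 with arrays of that age only. That of CA042416 over the time points became 0.026 with poor spots kept. With the authors' centred log values, an alternative added after seeing the data whose median change from 15 to 28 dpf was 0.25, it became 0.046, and 0.036 at 15 dpf. With the same values CA045910 changed by 0.022 from 15 to 19 dpf and had a genotype difference of 0.028 at 19 dpf, and CA061566 one of 0.027 at 19 dpf and 0.001 over the time points. Without background subtraction, r of the ratios was -0.16 for CA042416 and CA061566 and 0.075 for CB511019 and CA061566. With each array left out, values that changed sign ranged from -0.006 to 0.20 (CA045910, 15 to 28 dpf), -0.035 to 0.34 (CA061566, 15 to 19 dpf), -0.44 to 0.14 (CA042416, genotype difference at 28 minus 15 dpf) and -0.145 to 0.042 (CA042416, genotype over time points). Genotype differences ranged likewise from -0.24 to 0.048 (CB511019, 15 dpf), -0.13 to 0.028 and -0.12 to 0.021 (CA045910, 15 and 28 dpf), and -0.36 to 0.23 (19 dpf) and -0.155 to 0.039 (over time points) for CA061566. The cause of these changes was not tested. With detection in all 48 channels 0 of the 4 ESTs were tested, so that alternative gave no value. FDR 0.2 within a contrast left the number of ESTs called over time at 2. The array, which pairs an embryo of each genotype, was a block in the fit, and within-array log ratios alone also called 0 ESTs by genotype and 0 in its change over time. No paired analysis was possible for ages or sexes because each array holds 1 age and 1 sex.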
